A study of Mus musculus and Homo sapiens with 43 samples.

Results

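Translational efficiency in control 4T07 cells was described for 9143 mRNAs, before any knockdown of leucyl-tRNA synthetase. Efficiency is the log2 ratio of ribosome footprints to mRNA of a gene, as given in the control column of the authors' deposited table of ribosome profiling results. Of 9851 rows in that table, 18 had a date in place of a gene symbol and 3 named classes of reads that belong to no gene, which left 9830 genes. The 9143 members were those with a mean normalised count of at least 100 in the authors' deposited polysome table. The other 687 genes fell under that minimum. The series holds 43 samples of several assays, and 4T07 is a mouse mammary carcinoma line grown in culture. The control column belongs to cells carrying a control hairpin (shCtrl), for which 2 RNA-Seq libraries are labelled, and the labels hold 1 pooled footprint library with no hairpin of its own. The knockdown column, used here only for comparison, belongs to cells with hairpins against Lars (shLars3 and shLars4, 2 RNA-Seq libraries each). Each gene has 1 value per column and no column per library, so the values carry no replicate error and their depth is unknown. High and low were therefore set by size, as a distance of at least 1 on the log2 scale (2-fold) from the median of the members, and no test was made.

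Ribosome profiling sequences the mRNA fragments that ribosomes shield from nuclease. Dividing the footprints of a gene by its mRNA gives the ribosome load per transcript if both are counted over the coding sequence. Which region was counted for these values is unknown, and its part in them was not tested. A low ratio can come from few ribosomes starting on an mRNA, and a high one from many ribosomes or slow ones. Among mRNAs with known translational control, those of the TOP class (terminal oligopyrimidine) begin with a cytosine followed by a run of pyrimidines and encode ribosomal proteins and elongation factors under the growth-sensing kinase mTORC1. Other mRNAs are held back by short upstream reading frames, such as Atf4, or by an iron-responsive element bound by a repressor, such as ferritin.

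The start of an mRNA is where the TOP class is defined, so start regions of 5 members of that class are shown first. Each line gives 30 bases of RefSeq sequence (GRCm38.p6, the assembly behind mm10) centred on an annotated transcript start, on the strand of the transcript. The capitals mark the longest run of C and T that opens with C within 3 bases of the start. Only a run of at least 5 bases is marked. Eif3f at chr7:108934400-108934429 (plus strand), Gnb2l1 at chr11:48800345-48800374 (plus), Rpl18 at chr7:45718056-45718085 (plus) and Rps15a at chr7:118116133-118116162 (minus) held such a run. Rpl37a at chr1:72711245-72711274 (plus) is given as a member of the class without one at its annotated start.
Eif3f: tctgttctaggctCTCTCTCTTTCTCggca
Gnb2l1: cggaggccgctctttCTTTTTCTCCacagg
Rpl18: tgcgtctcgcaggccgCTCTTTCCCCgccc
Rps15a: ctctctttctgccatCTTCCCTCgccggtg
Rpl37a: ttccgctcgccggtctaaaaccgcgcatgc
The control efficiency of Eif3f, a subunit of the initiation factor eIF3, was 0.62 on the log2 scale, and that of Gnb2l1, the ribosomal scaffold protein RACK1, was −0.25. The ribosomal protein mRNAs lay far lower, at −3.98 for Rpl18, −5.45 for Rps15a and −6.77 for Rpl37a. Members with the run were thus found at low and at middle values.

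Efficiencies spread widely around a median of 0.00. The middle 50% of mRNAs lay between −0.82 and 0.74, a 2.95-fold range, and the 5th and 95th percentiles, at −2.23 and 1.77, were 15.9-fold apart. High values were given for 1643 mRNAs (18% of the members) and low values for 1911 (20.9%), with 5589 (61.1%) in between. Counts of high and low members in the lists below stand against these shares. The lower tail was the longer one. A total of 73 mRNAs lay at −4 or below, against 9 at 4 or above. The lowest value was −13.58 for Lars2, the mitochondrial leucyl-tRNA synthetase, and the highest 7.38 for Dpm1, a subunit of the enzyme that makes dolichol-phosphate mannose.

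**Figure D1:**
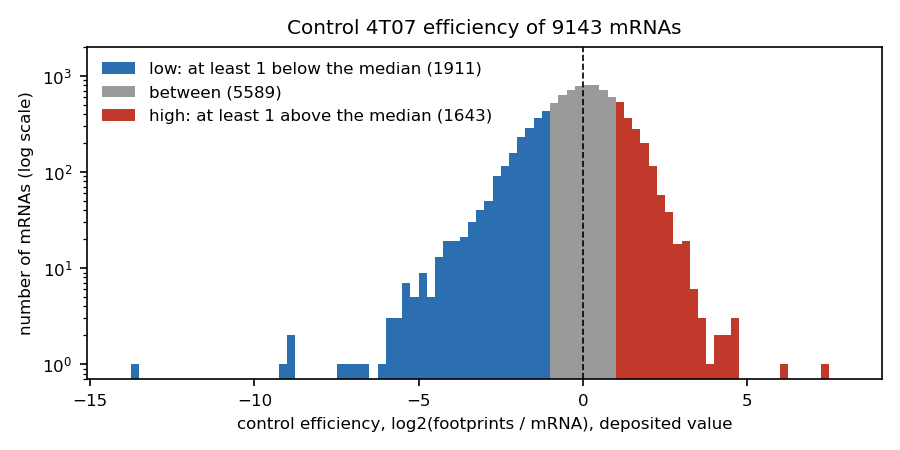
Number of mRNAs (vertical axis, log scale) by control efficiency (horizontal axis, log2 of footprints over mRNA) for the 9143 members. The dashed line is the median, and colours mark the 1911 low, 5589 intermediate and 1643 high mRNAs; the tail reaches further on the low side.

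The 2 lists of cytosolic ribosomal proteins had the lowest medians among the 59 lists with at least 5 members, −3.74 for the large and −3.67 for the small subunit. Of 86 listed ribosomal protein genes, 82 reached the mean count of 100 and 36 of these had an efficiency, with a median of −3.74 and a range from −9.11 to −0.75. Low values were given for 35 of the 36. In the small subunit Rps2 was the lowest at −9.11, Rps20 was at −6.59, and Rps3 lay near the upper end at −1.39. In the large subunit the lowest were Rpl37a at −6.77 and Rplp1, a protein of the ribosomal stalk, at −6.07. At the other end stood Rpl8 at −1.21 and Rpl36al at −1.62. Rps3a1, another small subunit protein that the search pattern of the list did not take in, was at −8.77. Not one of the listed ribosomal protein mRNAs was high.

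Genes of this class have many near-identical copies in the genome, and the values moved with that property. A RefSeq pseudogene named after the gene exists for 24 of the 36 ribosomal protein members, whose median was −4.01, and for none of the other 12, whose median was −2.24 (range −6.59 to −0.75). Without such genes the large subunit, at −1.90 (5 genes), no longer lay below the polyamine pathway, at −2.36 (4 genes). With overlapping genes left out as well, the small subunit was at −2.0 (4 genes) and the large at −1.41 (2 genes), above the −2.09 of the other TOP class mRNAs (12 genes). Of the 46 ribosomal protein genes without an efficiency, 41 have such a pseudogene. Over all members, the 199 with a named pseudogene had a median of −1.70, and 64.3% of them were low. The 8944 without one had a median of 0.02, and 19.9% were low. With 1 named pseudogene the median was −1.54 (149 genes), with 2 it was −1.45 (28 genes) and with at least 3 it was −3.69 (22 genes, of which 90.9% were low). The class of reads that aligned to more than 1 place, which the authors' deposited table lists as a row of its own, stood at 1.11 in the control column and at −0.38 in the knockdown column, where the ribosomal protein medians were −4.04 (small subunit) and −4.19 (large). In the control column the class of reads assigned to no feature stood at −6.06 and that of ambiguous reads at −2.29. The part that reads shared between copies play in the low values was not tested.

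The other mRNAs of the TOP class were also low as a group. Named pseudogenes exist for 3 of them, and copies that RefSeq lists under a Gm number were not counted. Of 19 members, 13 were low and 0 high, with a median of −1.93; the 16 without a named pseudogene had a median of −1.69. Npm1, a nucleolar chaperone of ribosome assembly, was at −5.40, and Naca, which binds nascent chains at the ribosome, at −4.88. Eef1a1, the factor that delivers aminoacyl-tRNA to the ribosome, was at −4.64 and Pabpc1, the poly(A)-binding protein, at −3.75. Eef2, which drives translocation, was close to the low threshold at −0.93. Eif3f at 0.62 and Eif3h at −0.06, both eIF3 subunits, were the highest of the list. Tpt1, also of this class and with a mean count of 42313, has no efficiency in the table.

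The pyrimidine run at the annotated start was set against efficiency, with no test. It was present in 16 of the 39 TOP class members with a start sequence (41.0%), against 1097 of all 7460 members with one (14.7%) and 3651 of 27025 RefSeq genes (13.5%). Within the class the 16 had a median of −3.98 (range −5.45 to 0.62) and the other 23 a median of −2.96 (range −9.11 to −0.93). Over all members the median was −0.04 with the run and 0.00 without it. In the 289 mRNAs with a run of at least 8 it was −0.11. RefSeq starts can differ from the starts used in these cells, so a missing run says only that these letters are not at the annotated start.

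Translation factors were described by list. The 12 eIF3 subunits had a median of 0.49, from Eif3m at −1.39 and Eif3e at −1.05 up to Eif3i at 0.94 and Eif3g at 1.02. Of the 12, 1 was high (8.33%) and 2 were low (16.7%), against 18% and 20.9% of all mRNAs. The 24 other initiation factors had a median of −0.51, and 9 of them were low. Eif4e, the cap-binding protein, was at −3.50 and Eif5, the partner of eIF2 in start codon recognition, at −3.20. Eif2b4 at 1.69, a subunit of the nucleotide exchange factor eIF2B, and Eif2d at 0.99 were the highest. Elongation and release factors had a median of −0.93, with 6 of 13 low. Their ends were Eef1a1 and Eef1g at −4.37 on the low side and Pelo at 1.59, a rescue factor for stalled ribosomes, on the high side.

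The enzymes that charge tRNAs had list medians above that of all mRNAs. The median of the 20 cytosolic aminoacyl-tRNA synthetases was 0.56. None was low, against 20.9% of all mRNAs, and 4 (20%) were high, near the 18% of all mRNAs. Dars at −0.15 and Nars at −0.13, for aspartate and asparagine, were the lowest, and Mars at 1.47 and Farsa at 1.51, for methionine and phenylalanine, the highest. Lars itself, the enzyme depleted in the knockdown cells, was at 0.44 in control cells. The 17 mitochondrial synthetases had a median of 0.84, with 7 high. Yars2 at 2.24 and Mars2 at 2.02 led, and Lars2 at −13.58 was the single low member, with Hars2 next at −0.34. Lars2 had a mean count of 17534 and overlaps the annotated gene Gm46137. The mean counts of the other mitochondrial synthetases ran from 203 (Pars2) to 2590 (Iars2). Whether all reads assigned to Lars2 come from its mRNA was not tested.

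mRNAs with regulatory upstream reading frames were mostly on the low side. Of 21 members, 10 were low (47.6%) and 2 high (9.52%), against 20.9% and 18% of all mRNAs, and the median was −0.99. Odc1, described below, was the lowest of the list at −4.93. The stress regulators Atf5 at −4.11, Ddit3 at −3.03, Ppp1r15a at −2.53 and Atf4 at −2.10 were low. Another annotated gene overlaps 10 of the 21 members, Odc1, Ddit3 and Ppp1r15a among them, and the other 11 had a median of −0.77. Cebpb, a transcription factor whose upstream frame sets the ratio of its isoforms, was at 3.21, the highest of the list, and Cdkn1a, a cell cycle inhibitor, at 1.14. Targets of ATF4 in the amino acid response presented the other picture, with a median of 0.72 and 10 of 21 members high. They ran from Cebpg at −3.10 and Phgdh at −1.27, the first enzyme of serine synthesis, up to Cebpb, which is in both lists. Cth, which makes cysteine, was next below Cebpb at 2.32. Slc3a2, the shared heavy chain of several amino acid transporters, was at 2.07.

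Iron storage and polyamine synthesis gave some of the lowest values outside the ribosome. Ferritin heavy chain, Fth1, was at −4.39 and ferritin light chain, Ftl1, at −5.39. Ftl1 has 2 named pseudogenes and Fth1 has none, with copies under a Gm number not counted. Tfrc, the transferrin receptor, whose iron-responsive elements lie at the other end of the mRNA, was at −0.53. Of the polyamine pathway 4 of 5 members were low, with a median of −2.21. Odc1, the first enzyme of the pathway, was at −4.93 and Sat1, which acetylates polyamines, at −2.52. Srm, spermidine synthase, was at 0.90. Oaz1 and Amd1 have no efficiency in the table. Selenoprotein mRNAs, in which a UGA codon is read as selenocysteine, had a median of −0.68 with 7 of 17 low. Sepw1 was at −4.20 and Selk at −3.86, while Sepn1 was at 1.59 and the thioredoxin reductase Txnrd2 at 1.16.

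Collagens, lysosomal enzymes, other secreted matrix proteins and integrins had medians above that of all mRNAs. The median of collagens was 1.21, the highest among the 59 lists with at least 5 members in the control column, with 7 of 11 members high and none low. In the knockdown column it was 0.82, under the 1.01 of lysosomal enzymes. They ranged from Col7a1 at 0.05 and Col4a6 at 0.39 to Col18a1 at 1.55 and Col5a1 at 1.79. In control cells lysosomal enzymes followed at 0.94, with 17 of 35 high. Gaa, acid alpha-glucosidase, was the highest at 2.27, while Cd63, a tetraspanin of late endosomes, was at −2.39 and Ids at −1.91. Cd63 is the only member of the lysosomal list with a named pseudogene. Other secreted matrix proteins had a median of 0.79 and 10 of 25 high, led by Fbln2, a fibulin, at 3.15 and Mmp9, a matrix protease, at 3.08. Timp2, an inhibitor of such proteases, was at −1.61 and Spp1, osteopontin, at −1.38. Integrins had a median of 0.51, from Itga6 at −0.77 to Itga5, the fibronectin receptor chain, at 2.25.

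Other lists of the cell surface, lysosome and secretory route lay nearer the middle or below it. Receptor tyrosine kinases had a median of −0.15, with 2 of 15 high and 2 low (13.3% each). Amino acid transporters were at 0.20, with 4 of 16 high (25%) and 1 low (6.25%). V-ATPase subunits were at 0.22, with 2 of 16 high and 2 low (12.5% each). Of all mRNAs 18% were high and 20.9% low. Chaperones and folding enzymes of the endoplasmic reticulum had a median of −0.69, with Hspa5 (BiP) at −1.48, Canx (calnexin) at −1.27 and only Sdf2l1, at 1.17, high among 17. The translocon and signal recognition particle had a median of −0.25, from Ssr3 at −2.65 to Ssr4 at 2.07, which are subunits of the same translocon-associated complex.

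**Figure D2:**
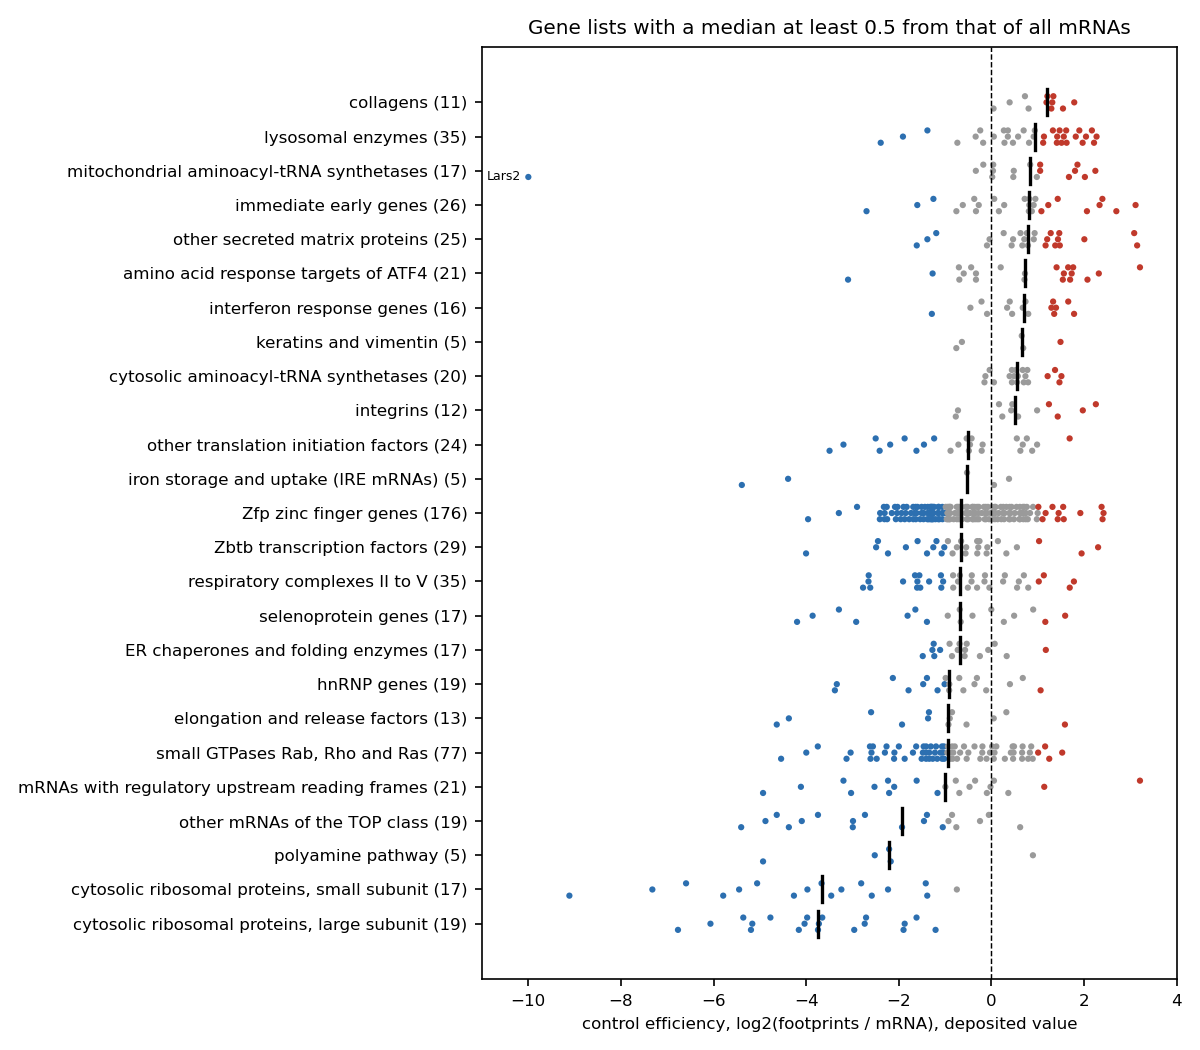
Control efficiency (horizontal axis, log2 of footprints over mRNA) of each member of the 25 gene lists whose median lies at least 0.5 from that of all mRNAs, with the number of members in brackets. Points are genes (blue low, red high, grey between), black bars are list medians, the dashed line is the median of all 9143 mRNAs, and Lars2 (−13.58) is drawn at the left edge with its name. Both ribosomal protein lists lie at the bottom and collagens at the top.

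Short-lived regulators of growth had high efficiencies in part. Of 26 immediate early genes, 8 were high (30.8%) and 3 low (11.5%), against 18% and 20.9% of all mRNAs, with a median of 0.81. Dusp1, a phosphatase of MAP kinases, was at 3.11 and Junb, a subunit of AP-1, at 2.70. Myc was at 2.33 and Jun at 0.91. At the low end were Btg1, an antiproliferative gene, at −2.70 and Mafk, a small Maf factor, at −1.60. In the p53 list 7 of 19 were low (36.8%) and 3 high (15.8%). In the regulatory core Mdm4 was at −3.42, Trp53 at −2.12 and Mdm2 at −1.16. Mdm4 and Trp53 are the 2 members of that list with a named pseudogene. Among the targets Sesn2 was at 1.56 and Cdkn1a at 1.14. Interferon response genes had a median of 0.71, from Ifit2 at −1.29 to Psmb8 at 1.78.

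Small GTPases, zinc finger genes, histone lysine methyltransferases and demethylases, and hnRNP genes had low shares above the 20.9% of all mRNAs. Of 77 small GTPases, 37 were low and 4 high (median −0.94), from Rhoq at −4.54 and Arl5a at −4.0 to Rab4b at 1.25 and Rhog at 1.53. Of 176 zinc finger genes named Zfp, 65 were low and 12 high (median −0.65), and of 29 Zbtb factors 11 were low and 3 high (median −0.65). Zfp664 at −3.96 and Zbtb18, a repressor, at −4.0 were the lowest, and Zfp296 at 2.42 and Zbtb45 at 2.30 the highest. The Zfp median changed side with the minimum mean count and was 0.50 at a minimum of 1000. Among 40 histone lysine methyltransferases and demethylases, 16 were low (40%) and none high, with a median of −0.25. Chromatin remodellers and acetyltransferases had a smaller low share, with 9 of 52 low (17.3%) and 7 high, but a similar median of −0.17. The lowest of the methyltransferases and demethylases was Setd8, which methylates histone H4, at −2.77, and the highest Kdm4b, a demethylase, at 0.87. RNA-binding proteins of the hnRNP group had a median of −0.91, with Hnrnpf at −3.38 and Hnrnpk at −3.34 lowest and Hnrnpa0 at 1.06 highest.

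Mitochondrial proteins encoded in the nucleus were described by complex. Mitochondrial ribosomal proteins had a median of 0.45, with 21 of 74 high and 8 low, in contrast to the cytosolic ribosome. Mrps28 and Mrpl53, both at 2.08, were the highest, and Mrpl51 at −2.17 and Mrps21 at −1.98 the lowest. Subunits of respiratory complex I had a median of 0.37 (7 of 33 high, or 21.2%, and 4 low, or 12.1%, against 18% and 20.9% of all mRNAs). Those of complexes II to V had a median of −0.68 (4 of 35 high, or 11.4%, and 14 low, or 40%). Ndufs8 at 2.03, an iron-sulphur subunit of complex I, and Sdhc at 1.78, a membrane anchor of complex II, were the highest. Atp5e at −2.77, a small subunit of ATP synthase, and Uqcrb at −2.65, of complex III, were the lowest. The difference between these lists was not tested.

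Within other pathways single members stood far from the rest. Glycolytic genes had a median of 0.48 (−0.36 at a minimum mean count of 1000). Gapdh, with 3 named pseudogenes, was at −5.99 and Pkm, pyruvate kinase, at −3.02, whereas the glucose transporter Slc2a1 was at 2.21 and Aldoc, an aldolase, at 1.80. Cytosolic heat shock proteins had a median of −0.22, yet Hspa8, the constitutive HSC70, was at −8.95 and Hsp90aa1 at −3.87. Bag3, a co-chaperone, was at 1.44. The mitochondrial chaperonin pair Hspe1 at −5.70 and Hspd1 at −3.51 contrasted with the protease subunit Clpp at 1.21. All 3 low members of the mitochondrial chaperone list, this pair included, have a named pseudogene. Hspe1 has 6 named pseudogenes and overlaps Hspd1. The 7 members without a named pseudogene ranged from 0.16 to 1.21. Among proteasome subunits (median 0.34) Psma3 stood apart at −4.78, with Psma5 next at −1.87, and the immunoproteasome subunit Psmb8 was the highest. The 9 histone genes ranged from H3f3b, a replacement histone H3, at −3.86 to the linker histone Hist1h1c at 4.42, with Hist3h2a at 3.90. Neither Hist1h1c nor Hist3h2a reached a mean count of 500. The histone median moved with the minimum mean count, from 0.31 to −0.82 at a minimum of 500, 1.18 at 20 and 2.91 with no minimum. The cause was not tested. Actb, β-actin, was at −1.93 and Ncl, nucleolin, at −1.90. Emp3, an epithelial membrane protein with a mean count of 5777, was at 0.77.

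Lists near the middle made up the rest. Of 59 lists with at least 5 members, 10 had a median at least 0.5 above that of all mRNAs and 15 at least 0.5 below. The other 34 lay closer, among them citrate cycle enzymes at 0.38, DNA replication at 0.40 (10 of 41 high, or 24.4% against 18% of all mRNAs, led by Cdt1, which licenses origins, at 2.17), RNA helicases at 0.28 and nucleoporins and importins at 0.26 (−0.10 without overlapping genes). The core spliceosome was at −0.01, mitotic genes at 0.08 and the mTORC1 pathway at 0.00. In the last, Lamtor3 at −3.89 and Lamtor1 at −2.15, both of the lysosomal anchor complex of mTORC1, were the lowest. Lamtor3 is the only member of that list with a named pseudogene. Nprl2 at 2.46 and Sec13 at 1.59, of the complexes that signal amino acid supply to mTORC1, were the highest.

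The 15 lowest and 15 highest mRNAs with a mean count of at least 500 differed in the kind of gene they came from. The lowest 15 included Lars2, Rps2, Hspa8, Rps3a1, Set, Rpl37a, Rps20, Rplp1, Gapdh, Srsf3, Rps4x, Hspe1, Snx22 and Smim10l1, ending at −5.60. Of these, 8 have a named pseudogene and 8 overlap another annotated gene, and only Set, a histone chaperone, at −7.02 and Smim10l1 had neither. The median mean count of the 15 was 22807, against 1410 for all 6286 genes considered. The highest 15 were Dpm1, Nptxr, Adnp, Nppb, Cmtr1, Fdx1l, Med27, Mgst1, Lgals9, Klk10, Sco2, Raver1, Cebpb, Dph1 and Fbxo6, ending at 3.18. None has a named pseudogene and 10 overlap another gene, and their median mean count was 941. Dpm1 at 7.38 and Adnp at 4.61 both overlap the same annotated gene, Gm20716, and Fdx1l at 4.03 and Raver1 at 3.22 both overlap Gm38431. Nptxr, at 6.12, overlaps Npcd. The kit of the RNA-Seq libraries does not mark strand, and reads in such shared stretches cannot be told apart. Their part in these values was not tested. Over all members overlap by itself went with little shift, with a median of −0.05 in 4288 overlapping genes and 0.04 in 4855 others.

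**Figure D3:**
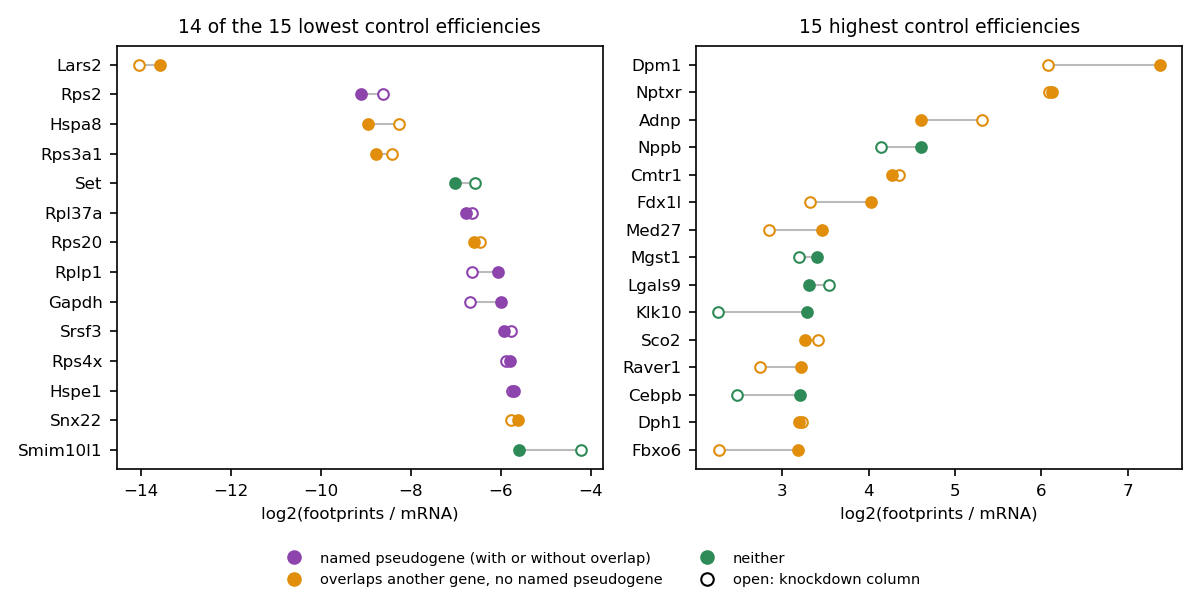
Control efficiencies of 14 of the 15 lowest (left) and of the 15 highest (right) among mRNAs with a mean count of at least 500, on horizontal axes of log2 footprints over mRNA with different ranges. Filled points are the control column, open points the knockdown column, and colours mark genes with a named pseudogene, genes that overlap another gene, and genes with neither; 2 of the 15 lowest and 5 of the 15 highest have neither.

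Among the 3307 genes with neither a named pseudogene nor an overlap, a choice made after the values were seen, the extremes had other members. After Set and Smim10l1 came Npm1 at −5.40, Josd1, a deubiquitinase, at −5.31 and Naca at −4.88. Then followed Ptp4a2, a phosphatase, at −4.80, Hmgn1, a nucleosome-binding protein, at −4.72 and Ak4, an adenylate kinase, at −4.70. On the high side Nppb, the precursor of B-type natriuretic peptide, was at 4.60 and Mgst1, a membrane glutathione transferase, at 3.40. Lgals9, a galectin, was at 3.31, Klk10, a secreted protease of the kallikrein family, at 3.29, Lgals3bp, a secreted galectin ligand, at 3.08 and Ackr3, an atypical chemokine receptor, at 3.06. Cat, catalase, closed the 15 at 2.65. Pseudogenes that RefSeq lists under a Gm number were not counted as named copies.

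Efficiency was somewhat lower in genes that are long on the chromosome, high in polysome mean count or GC-rich upstream of the start. Across genes Spearman's rho was −0.19 with genomic span (9129 genes), −0.17 with the polysome mean count (9143 genes) and −0.16 with the GC content of the 250 bases upstream of the start (7460 genes). These are descriptions across genes, which share the same libraries. In 5 groups of similar size by span, from the shortest to the longest, the median went from 0.35 to −0.35, and the share of high mRNAs from 30.2% to 8.16%. From the group with the lowest to that with the highest polysome mean count the median went from 0.23 to −0.29. That count pools polysome libraries of control and knockdown cells and is not the mRNA value inside the ratio. By upstream GC the first 3 groups had medians of 0.13, 0.20 and 0.12, and the highest group, from 68.5% GC up, stood at −0.45, with 32.1% of its mRNAs low and 9.07% high. The amount of mRNA is the denominator of the ratio, and its part in this relation was not tested. With the log2 value of the authors' deposited polysome table, whose contrast is not stated, rho was −0.15, and with that of the deposited RiboTag table (ribosome-bound mRNA of mouse mammary tumours with or without loss of 1 Lars allele) it was 0.05 (9054 genes).

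**Figure D4:**
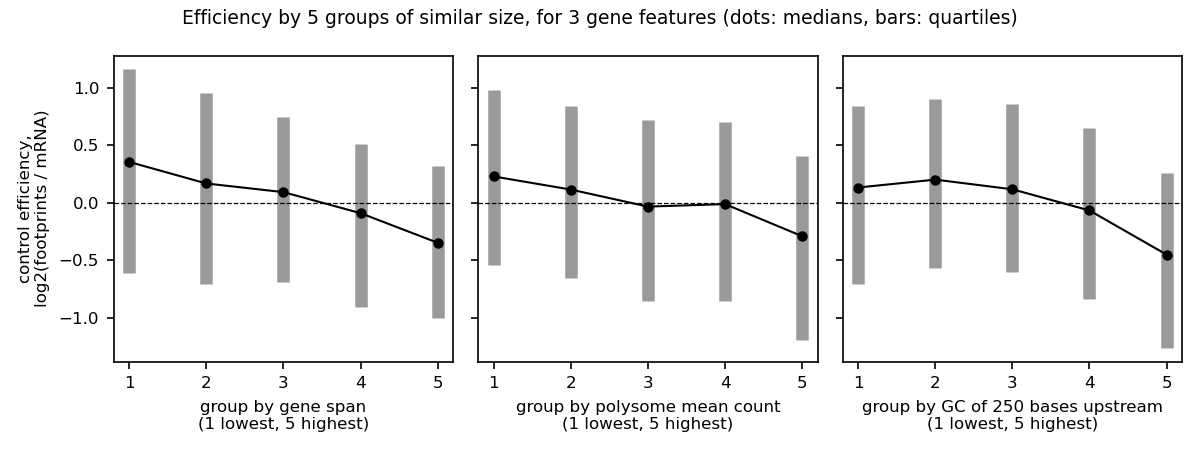
Median (dots) and quartiles (bars) of control efficiency, log2 footprints over mRNA, in 5 groups of similar size of genes by genomic span, polysome mean count and GC of the 250 bases upstream of the start. Medians run from 0.35 to −0.35 by span, from 0.23 to −0.29 by count, and reach −0.45 in the group with the highest GC, while the quartile ranges of all groups overlap.

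Upstream sequences of 3 members from the ends of the scale show how loosely GC and efficiency go together. Each line holds the 100 bases before an annotated RefSeq start on the strand of the transcript (GRCm38.p6), with every CG dinucleotide in capitals. For Ptp4a2 the start used lies inside the annotated gene (chr4:129811165-129850003), so its GC value belongs to that start only. Ptp4a2, at chr4:129820379-129820478 (plus strand), has the highest GC in these 100 bases of the low genes without a named copy or overlap for which a sequence was at hand (79%, 18 CG). Lgals3bp, at chr11:118401960-118402059 (minus), has the lowest of the high genes (51%, 1 CG), and Cebpb, at chr2:167688815-167688914 (plus), is a high gene that breaks the pattern (82%, 17 CG).
Ptp4a2: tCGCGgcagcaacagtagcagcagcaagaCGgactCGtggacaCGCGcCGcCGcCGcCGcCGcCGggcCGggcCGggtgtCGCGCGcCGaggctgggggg
Lgals3bp: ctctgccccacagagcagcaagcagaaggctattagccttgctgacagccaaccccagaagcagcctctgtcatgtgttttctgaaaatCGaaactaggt
Cebpb: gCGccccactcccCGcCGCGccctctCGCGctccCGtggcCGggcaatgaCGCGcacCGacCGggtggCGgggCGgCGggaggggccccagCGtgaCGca
Control efficiencies of the 3 were −4.80, 3.08 and 3.21. An ATG within the first 50 transcribed bases was found in 2725 members, whose median was 0.07, against −0.05 in the 4735 without one.

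The knockdown column ranked the mRNAs much as the control column did. Across the 9143 genes rho was 0.95, and the median absolute difference between the columns was 0.22 on the log2 scale; 86.1% of genes differed by less than 0.5 and 146 by more than 1. Of the 1643 mRNAs high in control cells, 1248 (76.0%) were high in the knockdown column too, which is 83.0% of the 1504 high there. Of the 1911 low in control cells, 1629 (85.2%) were low in both, or 87.4% of 1863. Odc1 was at −4.93 and −5.04, Pabpc1 at −3.75 and −3.80 and Fth1 at −4.39 and −4.42 in control and knockdown. Myc was at 2.33 and 1.85, Lars at 0.44 and 0.68, and Ddit3 at −3.03 and −2.35. Footprints are labelled as 1 pool, and the labels do not say how it was divided between the columns.

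**Figure D5:**
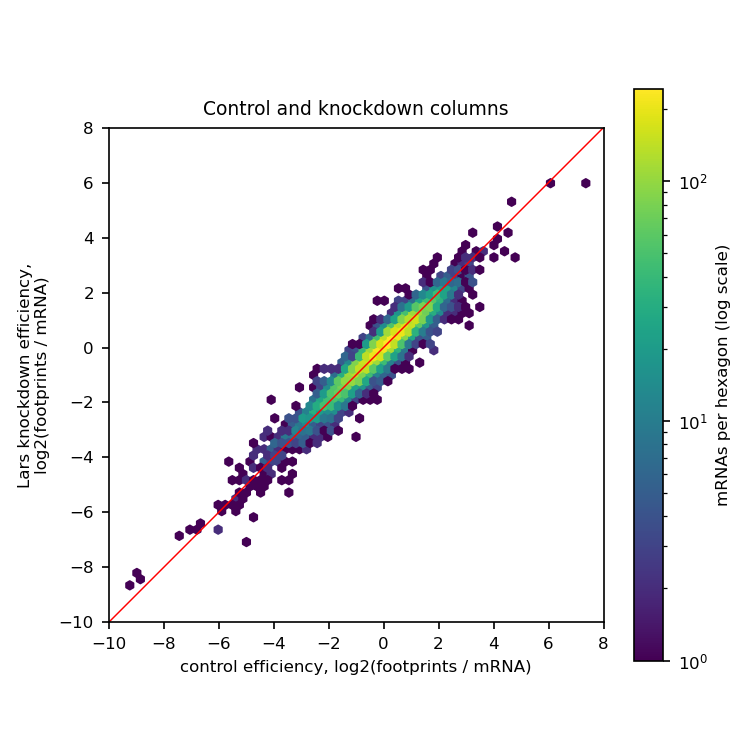
Control (horizontal) against Lars knockdown efficiency (vertical), both log2 footprints over mRNA, as the number of mRNAs per hexagon on a log colour scale; the red line marks equal values and Lars2 lies outside the axes. The mRNAs lie along the line from the low to the high end (rho 0.95).

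Members just inside and just outside the minimum mean count were as follows. Rpgr, with a mean count of 100.03, was at −0.74 and Fas, with 100.1, at 0.76. Just under the minimum, Egr3 (99.5) was at −1.37 and Spag4 (99.6) at 0.65. The 687 genes under the minimum had a median of 0.76 and 42.1% were high. In the other direction, 9926 genes reached a mean count of 100 and 92.1% of them had an efficiency. Of the 783 without one, 531 are protein coding, 168 are long noncoding RNAs and 36 are transcribed pseudogenes. Of those 531 coding genes 87 (16.4%) have a named pseudogene, against 199 of 9124 (2.18%) among coding genes with an efficiency. All 18 listed noncoding RNAs and snoRNA host genes that reached the count, Malat1 and Gas5 among them, lacked a value.

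The labelled cell type was looked at through the polysome mean counts, which cover control and knockdown libraries together. Of the epithelial markers 4 of 9 reached a count of 100, Krt8 highest at 8383, with Epcam at 16.4. Of the mesenchymal markers 5 of 10 did so, S100a4 highest at 123627, while Cdh2 and Snai2 were at 0. Of the immune markers 1 of 11 reached it, Cd68 at 141, with Ptprc at 1.01 and Cd8a at 0, and of the endothelial markers 0 of 7.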

How the data were processed

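The control and knockdown efficiencies are log2 values from the authors' deposited table, an xtail result per the file headers; the mean normalised count is a signal from the authors' deposited DESeq2 polysome table. The Wald score and p-values that the authors deposited beside it were not used. Per the submitters' processing notes the build was mm10 and the tools include STAR 2.5.2a, HTSeq, DESeq2, Bowtie2 2.4.1, featureCounts and SAMtools; the region counted (coding sequence or whole transcript) and any length term are not given in the sources used here. The RNA-Seq kit (TruSeq v2, per the labels' protocols) does not mark strand. Of the members, 9129 matched RefSeq (GRCm38.p6) and 7460 had a start sequence. Medians, counts and Spearman's rho were computed with Python 3.11.15, numpy 2.4.6, pandas 2.3.3 and scipy 1.17.1, and drawn with matplotlib 3.10.9, after a check on simulated data. Named genes were the 15 highest and 15 lowest at a mean count of at least 500, the 2 highest and 2 lowest of each list described, genes at the minimum count and a fixed panel; further members named beside these, and the pseudogene, overlap and symbol family groupings, were chosen after the values were seen. The members and the gene lists were chosen with earlier results of these data known. Alternatives were the minimum count, threshold, centring, knockdown column, overlapping genes and named copies. No depth per library could be given, and replicate spread was not analysed here. A few genes that this rule named are not reported here.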

Additional observations from a re-analysis of the deposited data

How the results depend on the processing

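With overlapping genes left out, 890 mRNAs were high and 1042 low. At a minimum mean count of 1000 the counts were 724 and 935, and at a threshold of 0.5 they were 2964 and 3069. The first 2 settings hold fewer genes and the last is a wider class. Under the other alternatives run (minimum 20, minimum 500, no minimum, the knockdown column, no centring, named copies left out) both counts stayed within 1.5 times the reported ones. List medians were recomputed 455 times: 390 lay within 0.222 of the reported value (the median difference between columns), and the other 65 moved further. The medians of 13 lists lay on the other side of the middle under at least 1 alternative. Of these 1, the Zfp zinc finger genes, had been at least 0.5 from it (−0.65, and 0.50 at a minimum mean count of 1000). Among the others were histones (0.31, and −0.93 without overlapping genes), kinesins (−0.26 and 0.53, likewise), and cyclins with their kinases (−0.32 and 0.28) and glycolytic enzymes (0.48 and −0.36) at a minimum of 1000; the cause was not tested. Of the 25 lists with a median at least 0.5 from the middle, 14 stayed there under every alternative run. The other 11 came closer than 0.5 under at least 1, among them lysosomal enzymes (0.43) and ATF4 targets (0.35) at a minimum of 1000, mitochondrial synthetases (0.33) at a minimum of 500, and immediate early genes (0.43) and iron-responsive mRNAs (−0.25) in the knockdown column. With named copies left out the ribosomal protein medians were −2.60 (small subunit) and −1.92 (large). The rank correlations moved by less than 0.1. No paired analysis was possible because the table has no column per library, and for the same reason no library could be left out. Protein and transcript features were not run. Depth is unknown, so the precision of single values cannot be given.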

Other observations

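Families read from gene symbols (at least 3 letters before the first digit and at least 8 members, a grouping made after the values were seen) added groups beyond the lists, described here without a test; Aldh1l2 and 4 Rap genes are also list members. Aldehyde dehydrogenases (Aldh) had a median of 1.36, with 7 of 9 members high, led by Aldh3a1 at 1.96 and Aldh16a1 at 1.85, and Aldh3a2 was the lowest at 0.28. Genes of coenzyme Q synthesis (Coq) had a median of 1.03, from Coq10b at −0.79 to Coq6 at 2.85. Peroxisome assembly genes (Pex) had a median of 0.97, from Pex2 at −0.48 to Pex16 at 2.83 and Pex10 at 2.93. Asparagine-linked glycosylation enzymes (Alg) had a median of 0.98, with Alg8 at 2.05 and Alg12 at 1.99, but Alg10b at −2.49. The conserved oligomeric Golgi complex (Cog) had a median of 0.88, from Cog3 at −0.18 to Cog1 at 2.18.

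At the low end, outside the ribosomal proteins, were small integral membrane proteins (Smim), with a median of −1.53 and 9 of 12 members low, from Smim10l1 at −5.60 to Smim8 at 0.78. Subunits of the import pore of the outer mitochondrial membrane and related genes (Tomm) had a median of −1.32 and 6 of 9 low. Tomm5 was at −2.60 and Tomm20, an import receptor, at −2.23, while Tomm40, the pore itself, was at 1.02. Rap GTPases and their regulators (Rap) had a median of −1.32, with Rap1a at −2.59 and Rap1gap at 0.87. The Atxn genes were split, with Atxn7l3 at −3.53 and Atxn1l at −3.16 against Atxn2l at 0.90 and Atxn7l2 at 1.34. The part that the counted region (coding sequence or whole transcript) plays in the low values of these families was not tested.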
